A study of Mus musculus with 6 samples.

Results

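The constitutive proteasome subunits are the 34 genes Psma1 to Psma7, Psmb1 to Psmb7, Psmc1 to Psmc6 and Psmd1 to Psmd14, chosen by symbol out of 18193 genes with a named probe set. Each gene was represented by its brightest probe set over the 6 arrays, and all 34 had one. RNA came from E14Tg2a, a line of mouse embryonic stem cells. All 3 groups grew in N2B27, a serum-free medium, supplemented with 20 ng/ml BMP4 and 1000 U/ml LIF. One group received 5 µM SB431542 for 24 h, a second received 10 ng/ml activin for 2 h, and controls were left untreated, with 2 Affymetrix arrays for each. SB431542 inhibits the kinase of the activin and Nodal type I receptors, and activin is a ligand of those receptors. The labels name 1 cell line and no vehicle, and they spell the inhibitor SB432542 in places. Whether both arrays of a treatment had their own culture is not stated in them.

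The proteasome degrades proteins tagged with ubiquitin. Its core particle is a stack of rings, outer rings of alpha subunits (Psma) that gate the entrance and inner rings of beta subunits (Psmb), of which Psmb5, Psmb6 and Psmb7 carry the proteolytic sites. A regulatory particle caps the core. Its base holds a ring of ATPases (Psmc) that unfold substrates and draw them in, and its lid (most Psmd genes) removes the ubiquitin chains. Interferon-inducible subunits Psmb8, Psmb9 and Psmb10 can replace Psmb5, Psmb6 and Psmb7 to form the immunoproteasome. Nfe2l1, a transcription factor with Maf partners, binds antioxidant response elements of proteasome genes when proteasome activity is short.

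Promoter sequence is shown for both catalytic subunits whose promoter holds the core letters of that element, Psmb5 and Psmb6, and for Psmd1 and Psmc4, which were among the subunits with the most positive differences after SB431542 and whose promoters hold no match. Each line gives the 100 bases before the start of transcription from RefSeq, build GRCm38.p6, 5′ to 3′ on the gene's strand, and capitals mark TGACNNNGC. The regions are chr14:54617996-54618095 on the minus strand for Psmb5, chr11:70525257-70525356 on the plus strand for Psmb6, chr1:86064519-86064618 on the plus strand for Psmd1 and chr7:28050093-28050192 on the minus strand for Psmc4.
Psmb5: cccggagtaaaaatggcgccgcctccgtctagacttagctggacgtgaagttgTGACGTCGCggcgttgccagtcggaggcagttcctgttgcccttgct
Psmb6: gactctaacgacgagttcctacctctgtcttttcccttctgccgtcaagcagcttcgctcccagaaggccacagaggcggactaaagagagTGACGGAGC
Psmd1: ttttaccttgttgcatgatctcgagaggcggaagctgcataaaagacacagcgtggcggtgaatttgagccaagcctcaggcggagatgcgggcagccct
Psmc4: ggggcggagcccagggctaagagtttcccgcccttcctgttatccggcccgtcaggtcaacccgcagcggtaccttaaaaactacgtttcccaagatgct

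The RefSeq promoter table held 30 promoters, from 250 bases before to 50 after the start, for 28 of the 34 genes. TGACNNNGC occurred on either strand in 5 of these promoters (16.7%), those of Psmb5, Psmb6, Psmc6, Psmd9 and Psmd12, and in 12.4% of all 32851 promoters. CCAAT, the letters bound by the factor NF-Y, occurred in 11 (36.7%) and in 37.4% of all promoters. Both shares were thus close to those of promoters at large, and a match describes letters, not a bound site.

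The deposited values are probe set intensities, and log2 of them was used throughout. The 34 subunits were bright on every array, with means over the 6 arrays from a log2 intensity of 8.75 to 13.27. On every array all 34 stood above 5.09, the highest value of the 15 probe sets for Bacillus transcripts, which mouse cells lack. Only the base chaperones Psmd9, at 8.75, and Psmd10, at 9.43, averaged under 10.36, the mean of Psmd13. Levels of different probe sets depend on their probes and are not ranked against each other. The median over the 34 subunits was 12.12 and 12.13 with SB431542, 12.18 and 12.15 with activin, and 12.22 and 12.11 in controls. The control arrays spanned the whole range of the 4 treated ones on this measure. The subunits' residual SD between arrays of a group had a median of 0.072, against 0.084 over the 4927 genes with a mean at or above that of Psmd9, the dimmest subunit.

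The known pathway target Lefty2, a Nodal antagonist that Nodal signalling induces, had intensities of 14 and 16 after SB431542, 1348 and 1253 after activin, and 497 and 493 in controls. Embryonic stem cell markers were present throughout, with 0 of 8 at or under the bacterial level. Their summed intensity was 32573 and 32723 after SB431542, 36420 and 37102 after activin, and 36844 and 34813 in controls. Trophoblast markers summed to 8180 and 8359 after SB431542, 5459 and 5480 after activin, and 6741 and 5530 in controls, with Elf5 at the bacterial level. The sums of fibroblast markers (248 and 257, 391 and 441, 346 and 323 in the same order, 3 of 7 at the bacterial level) and extraembryonic endoderm markers (376 and 373, 361 and 493, 434 and 368, 3 of 7) were low. By the second limma test described next, 4 of 7 trophoblast markers were higher and 1 lower after SB431542, and 1 of 8 stem cell markers higher and 4 lower. Of all genes that test called 4.25% higher and 2.23% lower. The part of the markers' cell types in the subunit values was not tested. In bulk RNA, fewer cells of a type and less RNA per cell cannot be told apart. The 3′ minus 5′ log2 signal of beta-actin lay between 0.20 and 0.32 on the 6 arrays and did not separate the groups. That of Gapdh was −0.14 and −0.08 after SB431542, −0.06 and −0.05 after activin, and −0.05 and −0.05 in controls, lower on both SB431542 arrays than on the other 4, and the part of this in the subunit values was not tested.

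The comparison of SB431542 with control asks which transcripts differ after 24 h of the inhibitor. Whether a difference came from blocked activin or Nodal signals was not tested, and the labels name no vehicle. The constitutive proteasome was nearly flat in this comparison. The median log2 difference of the 34 subunits was −0.04, against −0.00 over all 18193 genes and 0.02 over the 4927 genes at or above the dimmest subunit. In 28 of 34 the difference lay within 0.25 of 0, and the extremes were +0.41 for Psmd1 and −0.39 for Psmd7. The 95% intervals of all 34 lay within 1 log2 unit of 0, with outer bounds of −0.78 and 0.72. Each thus excluded a 2-fold change for the probe set that stood for its gene, with no adjustment for the number of genes. A dim second probe set of Psmd6, given below, differed by more. By limma at its default settings 0 subunits passed an adjusted p of 0.05, and 4 of 34 had an unadjusted p under 0.05. Of all 18193 genes 2501 had an unadjusted p under 0.05, and of the 4927 genes at or above the dimmest subunit 623. The default test called 0.0275% of all genes. When limma's prior variance was allowed to follow the signal level, with robust estimation (the intensity trend), 6 passed. Of them 3 were higher, where 4.25% of all genes and 9.50% of the genes at or above the dimmest subunit were, and 3 were lower, where 2.23% and 4.26% were. In either direction the test called 6.48% of all genes and 13.8% of those at or above the dimmest subunit. The subunits' count of 6 of 34 was close to the latter share, in a set bounded only by the dimmest subunit. All subunits but Psmd9 and Psmd10 averaged 10.36 or more.

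**Figure D1:**
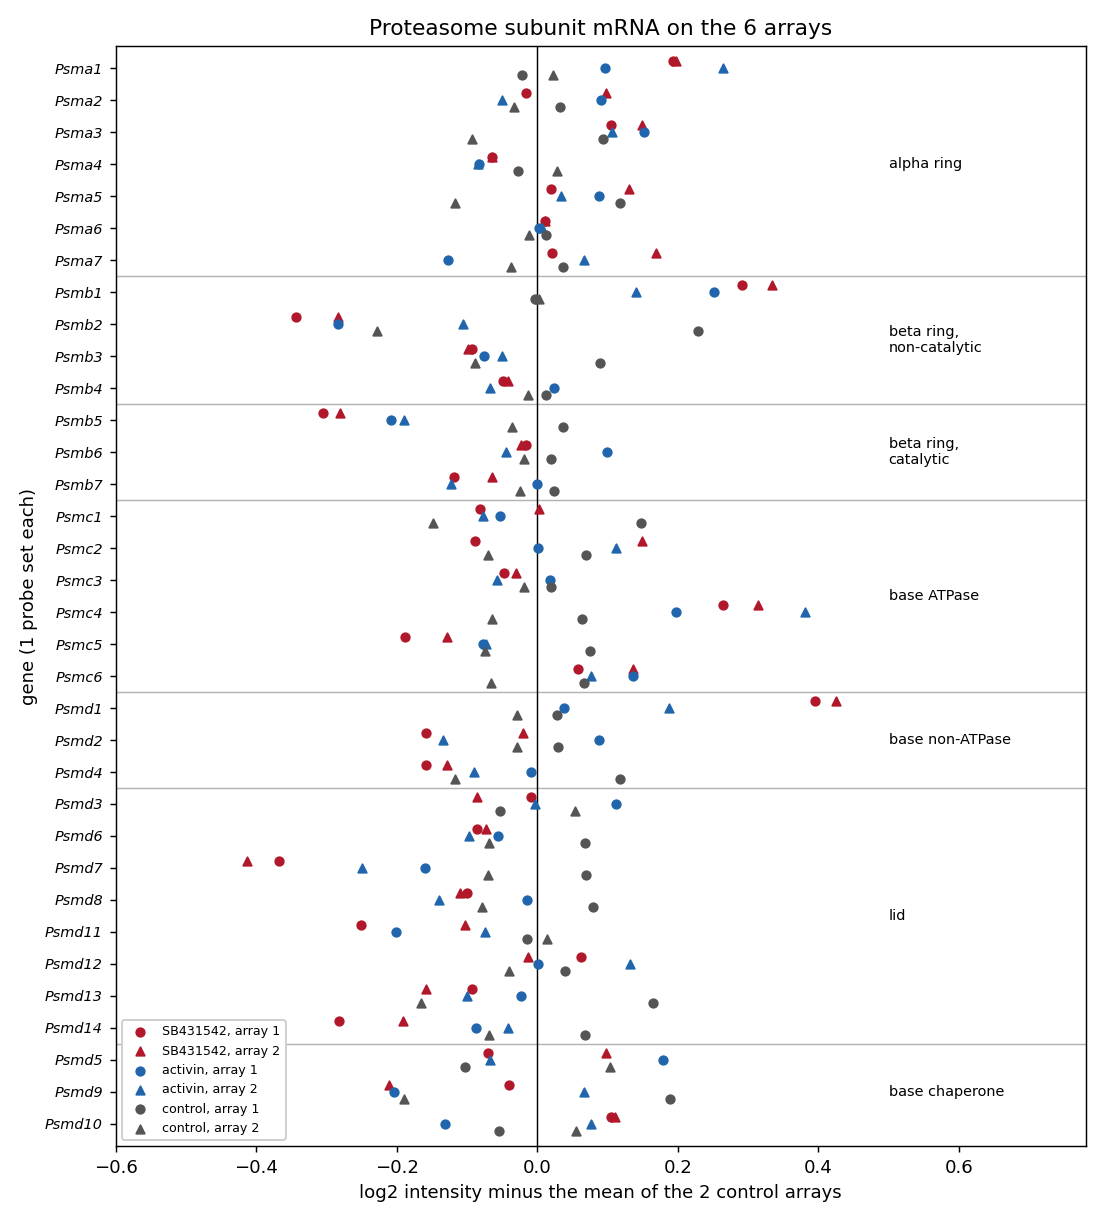
Each point is 1 array, placed by its log2 intensity minus the mean of the 2 control arrays (x axis), for the 34 subunit genes (y axis) ordered by their place in the complex. SB431542 arrays of Psmd1 and Psmb1 lie to the right of the other 4 arrays of the same gene, those of Psmd7 and Psmb5 to the left, and most genes stay within 0.25 of 0.

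Among the catalytic subunits, Psmb5, the chymotrypsin-like site, had intensities of 5013 and 5100 after SB431542, 5363 and 5434 after activin, and 6351 and 6043 in controls. All 4 treated arrays lay below both controls, and the SB431542 arrays below the activin arrays. Its log2 difference after SB431542 was −0.29 (SE 0.12, limma adjusted p = 0.382), 1.23-fold lower, and it fell by the intensity trend (adjusted p = 0.0065). Psmb6, the caspase-like site, read 5906 and 5877 after SB431542, 6403 and 5794 after activin, and 6056 and 5895 in controls, with overlapping groups and a difference of −0.02 (95% interval −0.32 to 0.28). Psmb7, the trypsin-like site, read 9416 and 9780 after SB431542, 10218 and 9387 after activin, and 10397 and 10051 in controls. Its SB431542 arrays lay below both controls, at −0.09 (95% interval −0.39 to 0.21), and it passed neither test. Whether Psmb5 differed from the other two was not tested.

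Of the 4 non-catalytic beta subunits, Psmb1 had intensities of 5927 and 6103 after SB431542, 5765 and 5337 after activin, and 4834 and 4854 in controls. Every treated array exceeded both controls, which were close to each other. Psmb1 was at +0.31 (SE 0.12, limma adjusted p = 0.373) and rose by the intensity trend (adjusted p = 0.0040). Psmb2 read 2060 and 2147 after SB431542, 2147 and 2427 after activin, and 3061 and 2230 in controls. Its difference of −0.31 (SE 0.19, limma adjusted p = 0.529) rests on the first control array, without which it was −0.08, and it passed neither test (adjusted p = 0.107 with the intensity trend). Psmb3 and Psmb4 were within 0.10 of 0.

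The 7 alpha subunits lay between −0.06 and 0.19, with a median of 0.07, and 0 passed either test. Psma1 was the highest of them, with 4451 and 4466 after SB431542, 4165 and 4677 after activin, and 3837 and 3954 in controls, at +0.19 (SE 0.12, adjusted p = 0.151 with the intensity trend). Its treated arrays all exceeded the controls. Psma6 had the lowest spread between arrays of a group (residual SD 0.00991), with intensities of 7016 and 7012 after SB431542, 6975 and 6997 after activin, and 7019 and 6904 in controls.

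In the base of the regulatory particle, Psmd1, a large scaffold subunit that ubiquitin receptors and lid contacts are built on, gave the most positive value. It had intensities of 2995 and 3056 after SB431542, 2338 and 2592 after activin, and 2322 and 2233 in controls. The SB431542 arrays stood above the other 4. Its log2 difference was +0.41 (SE 0.12, limma adjusted p = 0.307), 1.33-fold, and it rose by the intensity trend (adjusted p = 0.0013). Psmc4, a subunit of the ATPase ring, read 4801 and 4972 after SB431542, 4585 and 5207 after activin, and 4180 and 3825 in controls, at +0.29 (SE 0.13, limma adjusted p = 0.433). It rose by the intensity trend (adjusted p = 0.018), but its second bright probe set was at +0.07 (adjusted p = 0.740 by that test). The other 5 ATPases passed neither test, with Psmc5 lowest at −0.16. Psmd2, a partner scaffold of Psmd1, was at −0.09, and Psmd4, a ubiquitin receptor, at −0.14, and neither passed.

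In the lid, 7 of 8 subunits were below control, with a median of −0.12. Below control were also 9171 of all 18193 genes and 2214 of the 4927 genes at or above the dimmest subunit. Psmd7 had intensities of 1744 and 1690 after SB431542, 2015 and 1894 after activin, and 2362 and 2145 in controls, 3 groups with no overlap. It was at −0.39 (SE 0.12, limma adjusted p = 0.320), 1.31-fold lower, and fell by the intensity trend (adjusted p = 0.0043). Psmd14, the deubiquitinating enzyme of the lid, which pairs with Psmd7, read 5306 and 5652 after SB431542, 6074 and 6267 after activin, and 6763 and 6154 in controls. It was at −0.24 (SE 0.12, limma adjusted p = 0.481) and also fell by the intensity trend (adjusted p = 0.040). Psmd11 had SB431542 arrays below both controls, with a difference of −0.18 (adjusted p = 0.163 with the intensity trend). Psmd3, Psmd6, Psmd8, Psmd12 and Psmd13 lay between −0.13 and 0.02. The base chaperones Psmd5, Psmd9 and Psmd10, which help assemble the ATPase ring, lay between −0.13 and 0.11.

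The SB431542 and control arrays did not overlap in 6 subunits with higher and 14 with lower values. Of all genes 23.9% were higher and 22.4% lower by that measure, and of the genes at or above the dimmest subunit 35.0% and 25.7%. The typical size of a difference was small, with a median absolute value of 0.10 over the subunits and 0.14 over the latter genes. Of these genes 7.90% had a larger absolute difference than Psmd1.

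Of the 6 calls of the intensity trend, Psmd1 alone was kept whichever array was left out. Without SB431542 replicate 1 there were 2 calls, Psmd1 and Psmd7, and without SB431542 replicate 2 there was 1, Psmd1. Psmc4 was also lost without control replicate 2 and Psmd14 without control replicate 1. Shifting the columns to 1 median left 0 calls, although the differences stayed about as large, at +0.38 for Psmd1, −0.42 for Psmd7, −0.32 for Psmb5 and +0.29 for Psmb1. Averaging all probe sets of a gene, dim ones included, left 2 of the 6 calls, Psmd1 and Psmb5, and Psmd6 passed in addition. It gave +0.11 for Psmb1, −0.17 for Psmd7 and +0.18 for Psmc4, which no longer passed. The further probe sets of Psmb1 and Psmd7 are all dimmer than the dimmest subunit, and 1 of Psmd7 is not above the bacterial level on every array. Psmb5, Psmd1 and Psmd14 have 1 probe set each, so that averaging did not change their values, and Psmd14 no longer passed (adjusted p = 0.090).

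**Figure D2:**
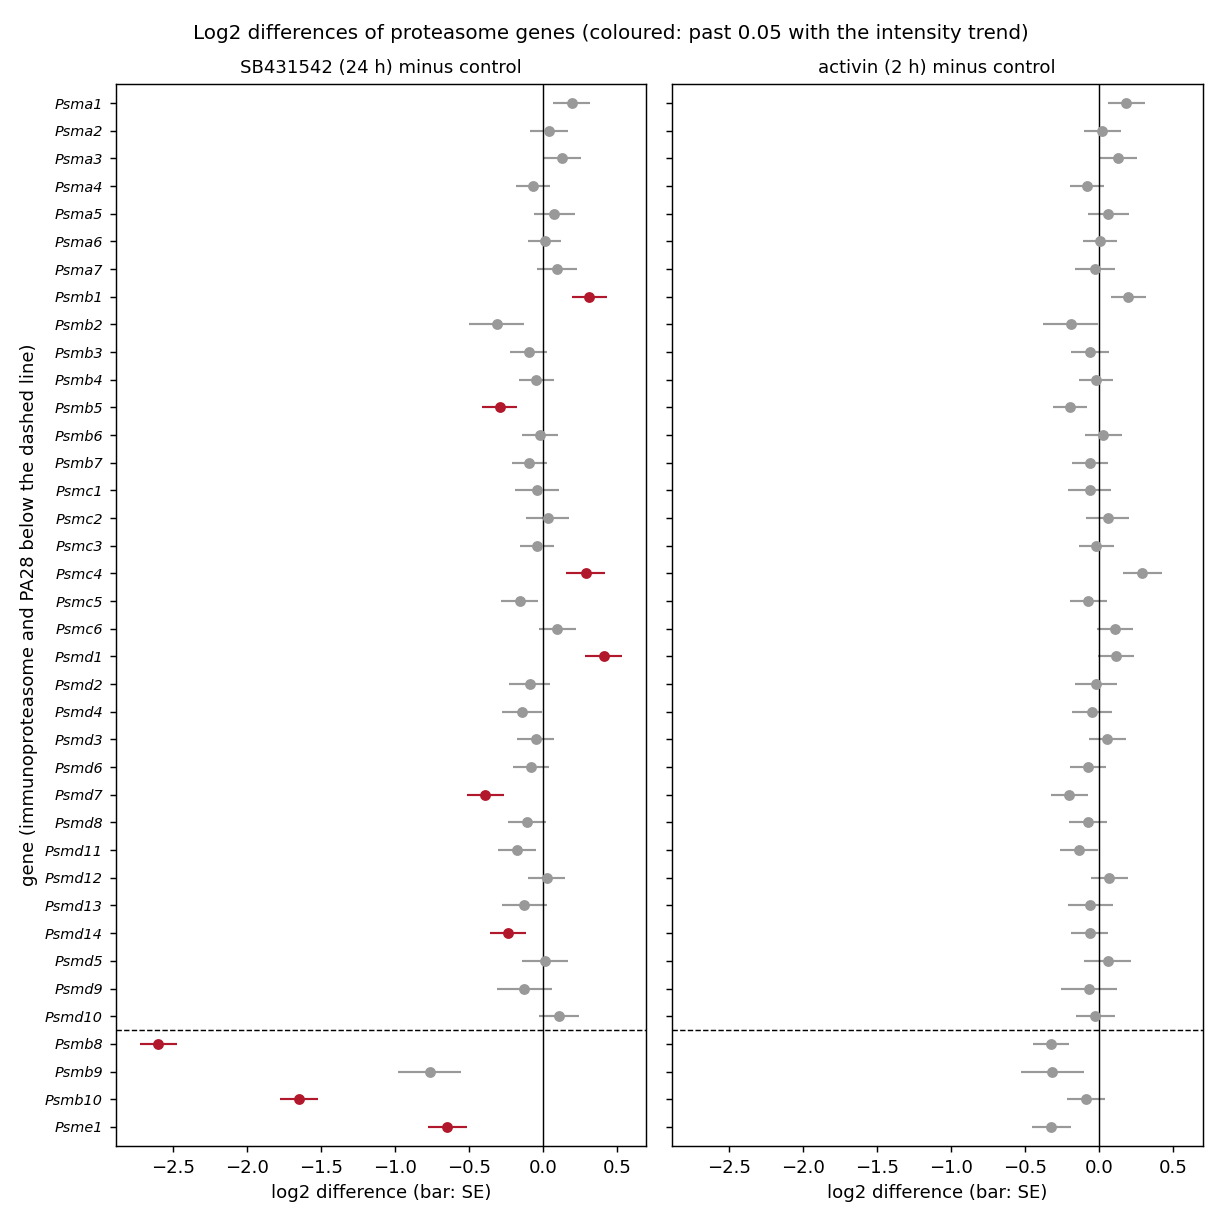
Log2 differences from control after SB431542 (left) and activin (right) are plotted on the x axis with their standard errors for the 34 subunit genes and, under the dashed line, for 4 immunoproteasome and activator genes, with coloured points past an adjusted p of 0.05 by the intensity trend. Constitutive subunits stay within 0.41 of 0 on the left, where Psmb8 is at −2.60 and Psmb10 at −1.64.

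The inducible counterparts had larger differences in the same RNA. Psmb8, which replaces Psmb5, had intensities of 44 and 49 after SB431542, 226 and 222 after activin, and 288 and 274 in controls, a log2 difference of −2.60 at which it fell by limma's default test (SE 0.12, adjusted p = 0.021). Averaged over its probe sets it was at −1.44. Psmb10, which replaces Psmb7, read 177 and 197 after SB431542, 535 and 560 after activin, and 607 and 561 in controls, at −1.64 (SE 0.13, limma adjusted p = 0.098), and fell by the intensity trend (adjusted p = 1.41e-11). Psmb9, which replaces Psmb6, was at −0.76 and passed neither test (adjusted p = 0.086 with the intensity trend). Psme1, a subunit of the interferon-inducible activator, fell by that test, at −0.65 (adjusted p = 1.96e-05), though not with columns shifted (adjusted p = 0.078). The 95% interval of each constitutive catalytic subunit reached no lower than −0.58, and those of Psmb8 and Psmb10 lay below that bound, while the difference between the paralogs was not itself tested.

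Other genes of the pathway were counted in lists by role. Of 6 assembly factors (Psmg1 to Psmg4, Pomp and Ecpas) 0 passed after SB431542 by either test, with a median of −0.01, and 0 had an unadjusted p under 0.05. Of 6 further subunits, activators and the inhibitor Psmf1, 2 activators rose by the intensity trend, Psme3 at +0.31 (adjusted p = 0.044) and Psme4 at +0.25 (adjusted p = 0.043), and 0 fell. Averaged over their probe sets Psme3 was at +0.14 and Psme4 at −0.00491, and neither passed. Of 18 symbols listed for proteasome-linked ubiquitin handling, 10 had a probe set of their own. Of these 10 genes, 2 rose by the intensity trend and 0 fell. That test called 4.25% of all genes and 9.50% of the genes at or above the dimmest subunit higher. Ubqln2, a shuttle that brings ubiquitinated proteins to the proteasome, had 4522 and 4749 after SB431542, 3012 and 3673 after activin, and 3043 and 3176 in controls, at +0.58 (SE 0.15, adjusted p = 1.05e-05 by the intensity trend). Usp14, a deubiquitinating enzyme of the proteasome, was at +0.30 (adjusted p = 0.023 by that test). Of 11 transcription factors of proteasome genes 0 passed by either test and 0 had an unadjusted p under 0.05, with Nfe2l1 at +0.17 and Nfe2l2 at +0.08.

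Other large complexes are given for scale. The COP9 signalosome, whose subunits are related to those of the lid, had a median of −0.02 over 10 genes and 0 calls by either test. The translation factor eIF3, related in the same way, had a median of −0.12 over 11 genes, with Eif3a alone higher by the intensity trend, at +0.24 (adjusted p = 0.030). The CCT chaperonin had a median of −0.03 over 8 genes and 0 calls by either test. The SD of the differences among genes was 0.17 for the proteasome, 0.15 for the signalosome, 0.14 for eIF3 and 0.09 for the chaperonin, against 0.25 over the genes at or above the dimmest subunit.

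**Figure D3:**
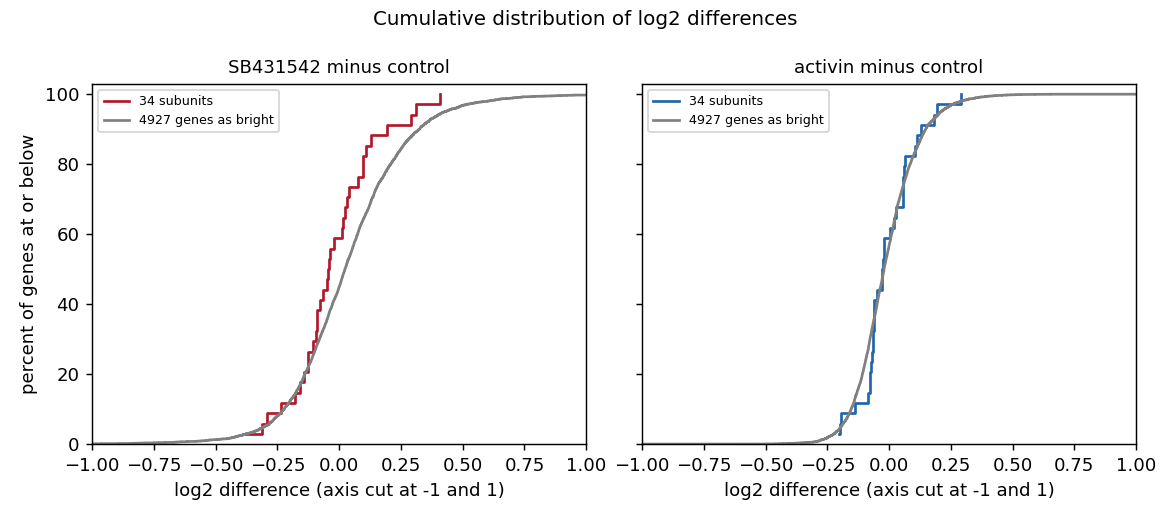
The cumulative share of genes (y axis, percent) is plotted against the log2 difference from control (x axis) after SB431542 (left) and activin (right). Lines are the 34 subunits and the 4927 genes with means at or above the dimmest subunit's, labelled as bright. After SB431542 the subunits have a median of −0.04 and those 4927 genes of 0.02, and after activin the medians are −0.03 and −0.02.

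Several subunits have more than 1 probe set, which gives a second reading of the same arrays. In 11 genes 2 or more probe sets had a mean at or above that of the dimmest subunit, 24 in all. Their differences after SB431542 had 1 sign in 6 genes and both signs in 5, and the median span within a gene was 0.20, against a median absolute difference between groups of 0.10 over the 34 subunits. The widest span, 0.54, was in Psmb4. Its brightest probe set read 7365 and 7403 after SB431542, 7745 and 7271 after activin, and 7688 and 7553 in controls. Its other one, of the type that may cross-hybridise, read 5411 and 5104 after SB431542, 4294 and 4842 after activin, and 3854 and 3588 in controls, a difference of +0.50 that rose by the intensity trend (adjusted p = 2.19e-05). Psma6 also differed, at +0.01 for its brightest probe set and +0.27 for the next (adjusted p = 0.020 by that test). In Psmc2 the values were +0.03 and −0.26, and the second fell (adjusted p = 0.021). In both genes the brightest probe set, which stands for the gene here, is of the type that may cross-hybridise, and the one that passed is not. In Psmd4 the 2 bright probe sets gave −0.14 each, and in Psmd11 all 4 bright ones were below control, between −0.31 and −0.12, and the dimmest of them fell by the intensity trend (adjusted p = 0.043).

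A dim second probe set of Psmd6, a lid subunit, had the largest difference of the genes' 72 probe sets. Its intensities were 231 and 250 after SB431542, 105 and 219 after activin, and 74 and 63 in controls, at +1.82 (adjusted p = 1.13e-05 by the intensity trend) after SB431542 and +1.15 (adjusted p = 0.033) after activin, where its 2 arrays lay far apart. The brightest Psmd6 probe set read 5204 and 5251 after SB431542, 5314 and 5160 after activin, and 5790 and 5265 in controls, at −0.08. Which transcripts the dim probe set detects was not examined. Of 38 further probe sets of the 34 genes, 3 rose and 2 fell after SB431542 by that test, where 3.38% of all probe sets rose and 1.60% fell, and 25 had means under that of the dimmest subunit.

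**Figure D4:**
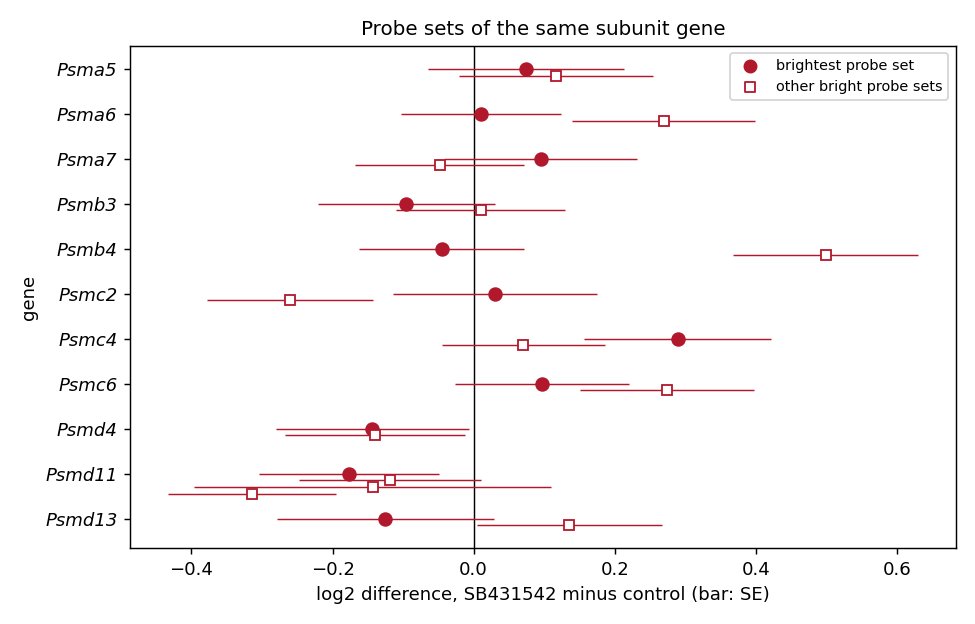
For the 11 subunit genes with several bright probe sets (y axis), the log2 difference of SB431542 from control (x axis) is shown for the brightest probe set (filled circle) and the others (open squares), with standard errors as bars. The probe sets of Psmd4 coincide, and those of Psmb4 lie 0.54 apart.

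The comparison of activin with control asks for the response to 2 h of added ligand. It shares its control arrays with the comparison above. The 34 subunits had a median of −0.03, against −0.01 over all genes, and 33 of 34 lay within 0.25 of 0. The 95% intervals of all 34 lay within 1 log2 unit of 0. By limma 0 subunits passed by default or with the intensity trend, and 0 had an unadjusted p under 0.05 by default. Of all 18193 genes 954 had an unadjusted p under 0.05, and of the 4927 genes at or above the dimmest subunit 69. With the intensity trend Psmc4 passed without activin replicate 1 or control replicate 1, and Psmb2 without control replicate 2. The shares of all genes called were 0% and 0.148%, and the intensity trend called 0.345% of the genes at or above the dimmest subunit. Psmc4 was the most positive at +0.29 (SE 0.13, adjusted p = 0.121 with the intensity trend), followed by Psmb1 at +0.20 and Psma1 at +0.18, which ranged from 0.0967 to 0.264 with 1 array left out. At the other end Psmd7 was at −0.20, Psmb5 at −0.20 (SE 0.12, adjusted p = 0.389 with the intensity trend) and Psmb2 at −0.19. Averaged over their probe sets, Psmd7 was at +0.16, Psmb1 at −0.10 and Psma1 at −0.0245. Psmb6 was at +0.03 and Psmb7 at −0.06. The activin and control arrays did not overlap in 6 subunits with higher and 4 with lower values, where 14.9% and 15.2% of all genes did so.

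The direct comparison of activin with SB431542 takes its log2 differences from no control array. The control arrays do enter its SEs and p-values, through the estimate of spread shared by all 6 arrays. The groups of this comparison also differ in length of treatment, 2 h against 24 h, and agent and length cannot be told apart in it. Its subunit median was +0.03, against 0.00 over all genes and −0.04 over the genes at or above the dimmest subunit. By limma's default test 0 subunits passed, 0 had an unadjusted p under 0.05, and 0.0330% of all genes were called. Of all 18193 genes 1878 had an unadjusted p under 0.05, and of the 4927 genes at or above the dimmest subunit 403. With the intensity trend 1 passed, where 3.37% of all genes and 6.19% of those 4927 genes did and 2.12% of all genes were lower. It was Psmd1, lower after activin at −0.30 (SE 0.12, adjusted p = 0.047 by that test), and this call was lost without activin replicate 1, SB431542 replicate 1 or SB431542 replicate 2. Psmd10, a base chaperone also known as gankyrin, was at −0.14 and Psma7 at −0.13. The activin and SB431542 arrays did not overlap in 7 subunits with higher and 5 with lower values, where 19.7% and 22.8% of all genes did so. Psmd7 was at +0.19, Psmd14 at +0.17 and Psmb2 at +0.12, and none of these passed. The catalytic subunits Psmb5, Psmb6 and Psmb7 were at +0.09, +0.05 and +0.03. By contrast Psmb8 was higher after activin than after SB431542 by 2.27 (SE 0.12, limma adjusted p = 0.025). Psmb10 was higher by 1.55 (adjusted p = 5.67e-11 by the intensity trend). In activin against control Psmb8 was at −0.33 and Psmb10 at −0.09, and neither passed either test. Ubqln2 was lower after activin than after SB431542 by the intensity trend, at −0.48 (adjusted p = 3.35e-04), and was at +0.10 in activin against control.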

How the data were processed

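The 6 columns hold probe set intensities as deposited by the authors, whole numbers from 6 to 26405 on a linear scale. The submitters' processing notes name RMA and give no version of it. The authors' columns have medians from 37 to 49. Log2 of the intensities was taken with no further normalization.

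Of 45101 probe sets, 64 controls were left out. Of the other 45037, 34945 have 1 gene symbol, 932 several and 9160 none. The design text names a smaller version of the array. Genes were named from the platform annotation.

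One limma model (limma 3.58.1, R 4.3.3) held all 6 arrays with a mean for each group, with Benjamini-Hochberg adjustment over 45037 probe sets. A second test, with an intensity trend and robust estimation, stands beside it because it moved the counts. Replicate numbers in the titles did not pair arrays (correlations of same-numbered deviations from −0.14 to 0.02). P-values rest on the spread between 2 arrays a group, which may be technical, moderated by a prior spread from all probe sets. Degrees of freedom were 3 for the residuals, 2.51 for the default prior and a median of 34.3 for the intensity trend's prior. With the intensity trend most of the variance estimate thus came from other probe sets of like signal, not from the gene's own arrays. The 2 arrays a group limit the precision. The fit was tested on simulated data with independent normal errors and no shifts between arrays. That test therefore cannot show how the calls behave under such shifts.

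Named subunits were those past either test, the catalytic ones, and the 3 most positive and negative in each comparison. Others are named by role. The members and lists were chosen with earlier results of these data known.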

Additional observations from a re-analysis of the deposited data

How the results depend on the processing

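By default 0 subunits passed in all 3 comparisons under every alternative other than the intensity trend: repeated quantile normalization, cyclic loess, columns shifted to 1 median, a pseudocount of 16, the dimmest 40% left out, probe sets averaged, each array left out, and the replicate block. The intensity trend gave 6 in SB431542 against control, 0 in activin against control and 1 in activin against SB431542. Alternatives combined with the intensity trend, and crossed numbers in activin, were added after seeing the data. The median difference of the subunits moved beyond the spread between arrays with repeated quantile normalization in SB431542 against control (−0.10). There the genes at or above the dimmest subunit also moved, to −0.03. The subunits' median moved too with columns shifted in activin against control (−0.0902), where all genes moved to −0.07. Without control replicate 1 in activin against control it moved as well (0.0214, with the sign turned). Leaving out each array gave medians from −0.0571 to −0.0039 in SB431542 against control, from −0.0545 to 0.0214 in activin against control and from −0.0186 to 0.0305 in activin against SB431542.

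With the intensity trend, SB431542 against control gave 0 calls with columns shifted, where 1 offset is applied to bright and dim probe sets alike, and 3 with probe sets averaged. It gave from 1 to 6 with each array left out, against from 0 to 1 in both other comparisons, where a lone array was assumed to vary like the other groups. Psmd1 passed in 14 of 15 alternatives, Psmb5 and Psmd7 in 12, Psmb1 in 11, and Psmc4 and Psmd14 in 9, always in 1 direction. In activin against SB431542 the call of Psmd1 was lost (0 calls) with repeated quantile normalization, cyclic loess, columns shifted, a pseudocount, probe sets averaged, and the replicate block with or without cyclic loess. The replicate block gave 6 calls in SB431542 against control, with Psmb2 in place of Psmd14, 5 with cyclic loess and 7 with crossed numbers, and Psme3 and Psme4 no longer passed under it.

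Signs turned for small values. Averaging probe sets turned Psme4 after SB431542 (−0.00491) and, after activin, Psmd7 (0.164), Psmb1 (−0.10) and Psma1 (−0.0245). Psmb6 in activin against control was −0.00890 with repeated quantile normalization, −0.0371 with columns shifted, and from −0.0444 to 0.0998 with each array left out. Psmb2 in activin against control ranged from −0.423 to 0.0337 with each array left out. In activin against SB431542, Psmb7 was −0.0100 with columns shifted and ranged from −0.0318 to 0.0906 with each array left out, and Psmb6 from −0.0241 to 0.120. The causes were not tested.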
